A study of Rattus norvegicus with 125 samples.

Results

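S2 is the middle portion of the proximal tubule, in which the convoluted tubule of the cortex passes into the straight tubule. Its 7 RNA sequencing libraries, of 125 samples in the series, were chosen by their label, and all genes were described in them. They were compared with the pool of the 98 libraries of the other 13 tubule segments: S1 (n = 7) and S3 (n = 7), the early and late proximal tubule, SDL (n = 10), the descending limb of short loops, LDLOM (n = 9) and LDLIM (n = 4), that of long loops in outer and inner medulla, tAL (n = 7), the thin ascending limb, mTAL (n = 7) and cTAL (n = 7), the thick ascending limb in medulla and cortex, DCT (n = 8), the distal convoluted tubule, CNT (n = 6), the connecting tubule, and CCD (n = 11), OMCD (n = 7) and IMCD (n = 8), the collecting duct in cortex, outer and inner medulla. All came by hand dissection from left kidneys of adult male Sprague-Dawley rats of 200 to 250 g on normal chow, with no treatment of the animals named. Kidneys were perfused and digested with collagenase at 37 C, for 25 minutes in cortex, 50 minutes in outer medulla and 90 minutes in inner medulla, so digestion time and zone cannot be told apart. A library is a dissected piece of tubule, amplified with a protocol made for single cells, and can carry other cells that adhered to it. Whether the libraries of a segment are from separate rats is not labelled, and the p-values reflect only how these libraries scatter, some of which may be technical. For each gene the scatter is shared by all 14 segments, so libraries outside a comparison also enter its SE.

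The proximal tubule takes back most of the filtered glucose, amino acids, phosphate and bicarbonate, and it secretes organic anions and cations, among them drugs and urate, from blood into urine. Its cells make glucose and ammonia, convert vitamin D and carry a brush border rich in peptidases. S2 is the portion classically tied to organic anion secretion, whereas S1 carries most of the bulk reabsorption and S3 has a distinct set of transporters and detoxifying enzymes.

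Levels are RPKM, reads scaled to transcript length and library size, as deposited. Differences are S2 minus the other group on the scale log2(RPKM + 1), which understates the fold of low genes, given with the standard error (SE). A gene was called at a Benjamini-Hochberg adjusted p under 0.05 and an absolute log2 difference of at least 1, by the trended test of limma over the 11078 genes that reached 1 RPKM in 4 or more libraries of the 14 segments. The 7 S2 libraries held 4734, 2614, 5046, 2195, 4997, 5200 and 7778 genes at 1 RPKM or more, against 1438 to 8574 (median 4522) in the 98 others. Log2 values of pairs of S2 libraries correlated across genes at 0.474 to 0.808. Relative to replicate 7, the depth of replicates 2 to 6 read from the steps of low values was 0.287, 0.468, 3.08, 2.26 and 0.618. A reading through replicate 1 gave other values for replicates 2 and 5, so the depth of replicates 1, 2 and 5 could not be settled. Replicate 4, with the fewest genes, was the deepest of replicates 2 to 6 in each reading. The step was shared by only 8 of 646 genes for replicate 2 and 9 of 794 for replicate 4. Of the libraries labelled S1 and S3, 3 correlated closely with S2 libraries. S1 replicate 6 correlated with S2 replicate 6 at 0.938 and S1 replicate 5 with S2 replicate 3 at 0.812, while S3 replicate 3 correlated with S2 replicate 7 at 0.868 and with S2 replicate 6 at 0.812. These 4 pairs exceeded every correlation within S2, so the counts against S1 and S3 are given with and without those libraries, and a call is marked where leaving out one of the 3 ended it.

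All 3 genes that mark the segment were detected in S2 libraries. Slc17a1, which encodes a urate and organic anion transporter of the apical membrane, had 51.1, 230.5, 25.1, 339.9, 73.2, 43.9 and 76.8 RPKM in S2 replicates 1 to 7. It had 0 to 73.7 RPKM (median 30.3) in S1 and 0.00809 to 111 RPKM (median 11.3) in S3. The groups overlap, yet all 7 S2 libraries exceeded the S3 median and all but replicate 3 the S1 median. The log2 difference was 5.75 ± 0.48 (SE; adjusted p = 8.15e-19) against the pool, 3.06 ± 0.65 (SE; adjusted p = 0.00295) against S1 and 3.27 ± 0.65 (SE; adjusted p = 0.000671) against S3.

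Cyp24a1, the mitochondrial enzyme that inactivates vitamin D by 24-hydroxylation, had 15.2, 1.48, 17.9, 18.4, 21.1, 1.59 and 68.1 RPKM in the 7 S2 libraries. In S1 it had 0 to 17.6 RPKM (median 0), in S3 0 to 1.62 RPKM (median 0.814), and its highest mean among the other 11 segments was 0.0231 RPKM, in CNT. S2 replicates 3, 4, 5 and 7 exceeded all 98 other libraries. Among the tested genes, 4 such libraries were otherwise seen only for Galnt11, an enzyme of O-glycosylation. The highest S1 value was that of S1 replicate 5, and the other 6 S1 libraries reached at most 1.34 RPKM. Its difference was 3.57 ± 0.26 (SE; adjusted p = 2.75e-22) against the pool. The second deposited table, made without polyadenylation-site data, lists Cyp24a1 at 0.154, 0, 0, 0, 0.353, 0.852 and 30.5 RPKM in the same S2 libraries, where it failed the filter on low values and was not tested.

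Slc22a8, the basolateral organic anion transporter Oat3, had 148, 152, 52.5, 0.0152, 199.8, 664 and 661 RPKM in S2 and 32.5 to 825 RPKM (median 80.7) in S1. Replicate 4 stood apart at 0.0152 RPKM, as it did for Slc22a6, the related transporter Oat1 that takes up p-aminohippurate, which had 105.3, 91.3, 56.2, 0.0428, 177, 197 and 518 RPKM. In S3, Slc22a8 had 0 to 107 RPKM (median 0.728). It was higher in S2 than in the pool, by 5.50 ± 0.59 (SE; adjusted p = 2.07e-13), and than in S3, by 4.23 ± 0.80 (SE; adjusted p = 0.000254), but the difference from S1 was -0.13 ± 0.80 (SE; adjusted p = 1). In the main fit Slc17a1 and Cyp24a1 thus separate S2 from each of the other 13 segment means. Slc22a8 was high in S2 and S1 alike, with a difference smaller than its SE. The call of Slc17a1 against S1 ended under 4 of 20 alternatives, among them a pseudocount of 0.1 and quantile normalization. That of Cyp24a1 ended under 1 of 19, with S2 and S1 fitted without the other segments.

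**Figure D1:**
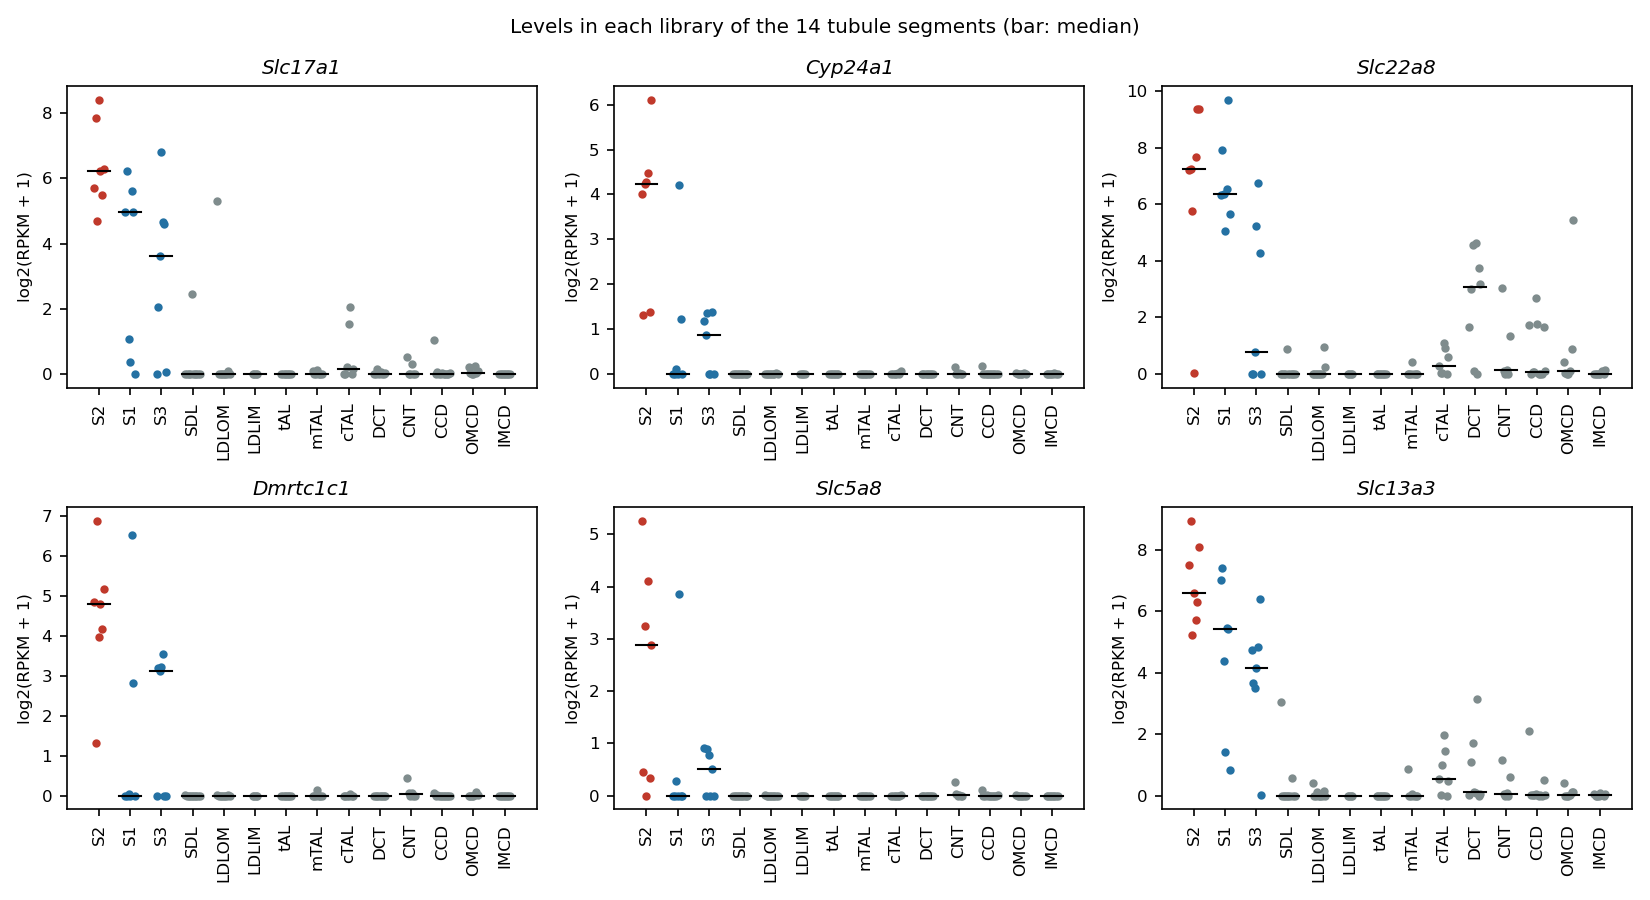
Level of 6 genes in each library of the 14 segments, as log2(RPKM + 1), with S2 in red, S1 and S3 in blue, the other 11 segments in grey and the segment median as a bar. Slc17a1, Cyp24a1, Dmrtc1c1, Slc5a8 and Slc13a3 have their highest median in S2, with 1 high S1 library for Cyp24a1, Dmrtc1c1 and Slc5a8, while the S2 and S1 libraries of Slc22a8 overlap except for 1 S2 library near 0.

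The start regions of 4 genes higher in S2 than in the pool are shown so that their core promoters can be compared. Each run gives 250 bases before and 50 bases after the annotated start of the gene in RefSeq, build GRCr8, on the strand of the gene, with the TATA box letters TATAAA, searched on both strands, in capitals (TTTATA where they lie on the other strand). Slc22a8 (chr1:214927034-214927333, plus strand) and Slc17a1 (chr17:41681125-41681424, minus strand) hold no match of these letters. Slc34a1 (chr17:9238934-9239233, minus strand) and Miox (chr7:122284410-122284709, plus strand) hold 1 match each, on the strand of the gene, with its first base at -43 in Slc34a1 and -47 in Miox relative to the start. Other forms of the TATA box, such as the tatataa in the run of Slc22a8, were not searched.
Slc22a8: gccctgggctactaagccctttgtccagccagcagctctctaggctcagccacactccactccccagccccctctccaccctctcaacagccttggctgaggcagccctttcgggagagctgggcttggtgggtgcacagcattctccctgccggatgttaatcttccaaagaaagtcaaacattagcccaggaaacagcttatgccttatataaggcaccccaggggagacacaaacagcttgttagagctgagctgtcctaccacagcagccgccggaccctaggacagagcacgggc
Slc34a1: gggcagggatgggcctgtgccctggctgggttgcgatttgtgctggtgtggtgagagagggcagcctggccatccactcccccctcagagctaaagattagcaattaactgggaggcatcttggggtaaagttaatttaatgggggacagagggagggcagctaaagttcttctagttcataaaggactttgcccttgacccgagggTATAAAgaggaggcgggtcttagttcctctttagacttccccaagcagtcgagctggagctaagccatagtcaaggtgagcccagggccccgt
Miox: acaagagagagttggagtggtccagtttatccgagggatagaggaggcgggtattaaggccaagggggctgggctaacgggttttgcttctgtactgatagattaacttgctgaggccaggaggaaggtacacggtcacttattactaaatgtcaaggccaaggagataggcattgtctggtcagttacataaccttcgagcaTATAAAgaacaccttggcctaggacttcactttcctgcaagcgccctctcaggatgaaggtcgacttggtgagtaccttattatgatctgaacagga
Slc17a1: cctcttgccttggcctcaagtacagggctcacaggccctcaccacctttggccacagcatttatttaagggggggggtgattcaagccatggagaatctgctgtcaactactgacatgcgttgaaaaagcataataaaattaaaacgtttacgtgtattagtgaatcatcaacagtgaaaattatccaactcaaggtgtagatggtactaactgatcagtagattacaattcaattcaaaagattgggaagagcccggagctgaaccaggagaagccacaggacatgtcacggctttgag
The motif is in 14.2% of all 33469 RefSeq start windows of this length. By gene, it is in 47 of the 405 windows of genes called higher in S2 than in the pool (11.6%), in 23 of 164 of those called lower (14.0%) and in 587 of 8270 tested genes with a window (7.1%). These shares were not tested, and a match of letters does not show that a factor binds there.

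Against the pool, 764 of 11078 genes were called (6.9%), of which 535 were higher in S2 (4.83% of those tested) and 229 lower (2.07%), around an all-gene median difference of -0.23. No gene had all 7 S2 libraries above, or all below, the 98 others. Of the 535 genes, 418 had no call against S1 or S3, 49 were also higher than S1, 72 than S3 and 10 than both. Of the same 535, 245 reached 1 RPKM in all 7 S2 libraries and 50 in at most 3. In dissected pieces, fewer cells of a type and less RNA per cell cannot be told apart. The gene lists were written with earlier results of these data known, so their counts here and below describe the libraries and test nothing. Of the 15 tested genes that define the proximal tubule, 13 were higher in S2 than in the pool (median difference 3.58), none was called against S1 and 2 were higher than S3. Of all tested genes, 0.596% were called against S1 and 0.885% against S3.

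Of the genes tested, Miox, Kap and Tmem27 had the 3 largest differences from the pool. Miox, the oxygenase that starts inositol breakdown, had 1325, 2351, 805, 4289, 4428, 3849 and 13784 RPKM in S2, against 0 to 5526 RPKM (median 5.29) in the pool. All 7 S2 libraries lay far above the pool median, while S3 libraries reached 5526 RPKM, and the difference was 8.12 ± 0.83 (SE; adjusted p = 2.44e-14). Kap, an androgen-regulated kidney protein, had 1825, 17161, 9308, 17102, 11456, 2389 and 3008 RPKM, and its difference was 8.06 ± 0.99 (SE; adjusted p = 7.54e-11). Tmem27, or collectrin, which carries amino acid transporters to the brush border, had 704, 1155, 6961, 599, 441, 377 and 989 RPKM, replicate 3 being the highest, with a difference of 7.95 ± 0.67 (SE; adjusted p = 1.84e-18).

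Slc34a1, the main phosphate carrier of the brush border, had 1242, 585, 348, 817, 1278, 2976 and 6369 RPKM in S2, against a pool median of 0.397 RPKM, with a difference of 7.80 ± 0.83 (SE; adjusted p = 1.43e-13). Glyat, which joins glycine to acyl groups such as benzoate, differed by 7.77 ± 0.76 (SE; adjusted p = 1.96e-15), and Gatm, the first enzyme of creatine synthesis, by 7.71 ± 0.62 (SE; adjusted p = 1.07e-19). Pck1, the rate-limiting enzyme of glucose synthesis, differed by 7.08 ± 0.60 (SE; adjusted p = 2.59e-18), Hpd of tyrosine breakdown by 7.02 ± 0.72 (SE; adjusted p = 2.66e-14), and the lipid carrier Apom by 6.86 ± 0.68 (SE; adjusted p = 5.38e-15). Of the 9 genes from Miox to Apom, none was called against S1, and among them only Gatm was called against S3.

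For 3 other leaders the deposited tables or single libraries matter. Gpx3, the secreted glutathione peroxidase, had 4227, 7414, 1559, 6629, 4156, 57784 and 6339 RPKM, replicate 6 being the highest, and differed by 7.46 ± 0.88 (SE; adjusted p = 1.63e-11). Tnip1, its neighbour in the genome, differed by 7.10 ± 0.80 (SE; adjusted p = 2.56e-12), but the second deposited table lists Tnip1 at 0 to 12.7 RPKM in S2, and there the difference was -0.41. Pfn3, the neighbour of Slc34a1, differed by 7.54 ± 0.73 (SE; adjusted p = 1.61e-15), with S2 means (RPKM + 1) that were 25.6-fold apart between the tables. For these genes the part that reads of the neighbour play was not tested.

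Organic ion transporters were higher in S2 for 16 of 23 tested members (median difference 3.22), and none was lower. Slc22a2, the basolateral cation transporter Oct2, had 85.2, 43.7, 96.5, 218, 275, 50.0 and 271 RPKM, and its pool difference was 5.76 ± 0.55 (SE; adjusted p = 9.43e-16). Slc22a12, the urate exchanger Urat1, had 117, 13.1, 21.6, 3.61, 117, 7.41 and 213 RPKM and differed by 4.27 ± 0.45 (SE; adjusted p = 6.09e-14). Both genes were called higher than S1, with no call against S3. Amino acid transporters were higher for 9 of 23, none lower (median 1.01).

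Of the transporters of glucose, fructose, lactate, dicarboxylates and sulfate, 14 of 20 were higher in S2 and 1 lower (median 1.73). The lower one was Slc2a1, the widely expressed glucose transporter Glut1, with 16.0, 0.308, 11.1, 0.00239, 0.00652, 0.119 and 2.32 RPKM in S2 and a difference of -2.65 ± 0.82 (SE; adjusted p = 0.0252), a call that ended without S2 replicate 2, 4, 5 or 6 (adjusted p up to 0.0971). Slc13a3, the basolateral dicarboxylate transporter NaDC3, had 180.1, 484, 36.6, 95.4, 50.9, 76.8 and 269 RPKM in S2, against a pool median of 0.0152 RPKM, and differed by 6.03 ± 0.45 (SE; adjusted p = 2.83e-21). Acid-base and phosphate transport genes were higher for 6 of 23 and lower for none (median 0.89). Genes of vitamin D metabolism and receptor-mediated endocytosis were higher for 5 of 17 (median 0.22), among them Lrp2, or megalin, by 2.99 ± 0.50 (SE; adjusted p = 1.21e-06) and its partner Cubn by 1.80 ± 0.40 (SE; adjusted p = 0.000409). Megalin had 61.3, 5.04, 34.3, 0.223, 36.6, 5.46 and 69.0 RPKM, low in replicates 2, 4 and 6.

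Of the enzymes of glucose, ammonia and creatine synthesis and of fructose use, 21 of 28 were higher and 1 lower (median 4.63). Fbp1, which releases fructose 6-phosphate in glucose synthesis, had 228, 98.5, 183, 246, 554, 546 and 1618 RPKM and differed by 6.69 ± 0.52 (SE; adjusted p = 1.27e-20). Glul, glutamine synthetase, had 325, 395, 195, 972, 528, 454 and 539 RPKM and was higher than the pool by 4.05 ± 0.86 (SE; adjusted p = 0.000247).

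Cytochrome P450 genes were higher for 11 of 19 (median 1.53), conjugation and oxidation genes for 18 of 33 with 1 lower (median 2.13), and brush border peptidases and angiotensin genes for 13 of 20 with 1 lower (median 2.60). Fatty acid oxidation and peroxisome genes were higher for 7 of 29, with 1 lower (median 0.70). Of 35 nephron transcription factors, 3 were higher and 3 lower (median -0.23, as for all genes), with 5 higher without S2 replicates 2 and 4 and none lower in the second table. The single lower calls among gluconeogenic, conjugation, peptidase and fatty acid genes ended without S2 replicates 2 and 4. Hnf4a, a nuclear receptor of proximal tubule genes, had 76.9, 4.37, 12.4, 27.8, 10.1, 31.9 and 146 RPKM and differed by 3.96 ± 0.43 (SE; adjusted p = 2.56e-13). Pth1r, the parathyroid hormone receptor that sets phosphate uptake, had 136, 221, 16.2, 802, 179, 123 and 374 RPKM and differed by 4.73 ± 0.66 (SE; adjusted p = 6.27e-09).

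Of the 229 genes lower in S2 than in the pool, 228 had no call against S1 or S3. In 171 of them at most 3 S2 libraries reached 1 RPKM. S100a6, a calcium-binding protein, had 0.0623, 0, 0, 0.0153, 0.125, 0.382 and 6.01 RPKM in S2, against 0 to 16557 RPKM (median 186) in the pool. Only S2 replicate 7 exceeded 1 RPKM, and the difference was -6.73 ± 0.88 (SE; adjusted p = 8.03e-10). Mal, a protein of apical membrane transport, differed by -6.33 ± 0.66 (SE; adjusted p = 4.11e-14), the surface protein Cd24 by -6.16 ± 0.58 (SE; adjusted p = 3.52e-16), and S100a11 by -6.14 ± 0.58 (SE; adjusted p = 6.2e-16). Cd9, Anxa5, Efhd1, Crip2, Wfdc2, S100a1, Sostdc1 and Btg2 completed the 12 largest decreases, with differences of -4.94, -4.92, -4.81, -4.77, -4.68, -4.64, -4.62 and -4.56.

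By list, 11 of 28 sodium pump, potassium channel and tight junction genes were lower and 3 higher (median -1.45), and without S2 replicates 2 and 4, chosen after seeing the data, 4 were lower. Cldn4, a sealing claudin of distal segments, had at most 0.835 RPKM in S2 and differed by -4.49 ± 0.92 (SE; adjusted p = 0.000125). Of 17 principal and intercalated cell genes 7 were lower, of 14 thick limb and distal convoluted tubule genes 3, and of 8 thin limb genes 3, with 2 thin limb genes higher. Immediate early and heat shock genes were lower for 9 of 20 (median -2.06). Egr1 had 0.00909, 0, 0.0147, 0.00671, 4.42, 0.401 and 2.67 RPKM and Fos 0.0702, 0.340, 0.256, 58.8, 0.151, 14.7 and 20.03 RPKM in S2, with differences of -4.53 ± 0.72 (SE; adjusted p = 4.06e-07) and -4.30 ± 0.97 (SE; adjusted p = 0.000588). None of those 20 genes was called against S1 or S3, where 0.596% and 0.885% of all tested genes were, so the count does not show equal levels. The list summed to 16.5 to 138 RPKM (median 60.4) in S1 and 30.2 to 669 (median 241) in S3. Pieces of cortex, outer medulla and inner medulla were digested for different times, and the list was summed in segments of the cortex as well: to 41.2 to 155 RPKM (median 82.0) in S2, against 161 to 1092 (median 367) in cTAL, 44.9 to 1237 (median 404) in DCT, 53.3 to 1083 (median 491) in CNT and 142 to 2445 (median 1054) in CCD. The part of digestion in these differences was not tested. Tubule injury genes were lower for 2 of 11 against the pool, Cryab and the intermediate filament gene Vim, and 1 was lower without S2 replicate 6. The pool call of Cryab ended without S2 replicate 1, 3, 6 or 7 (adjusted p up to 0.277). Of the 11, Cryab was also called higher than S1 and lower than S3.

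**Figure D2:**
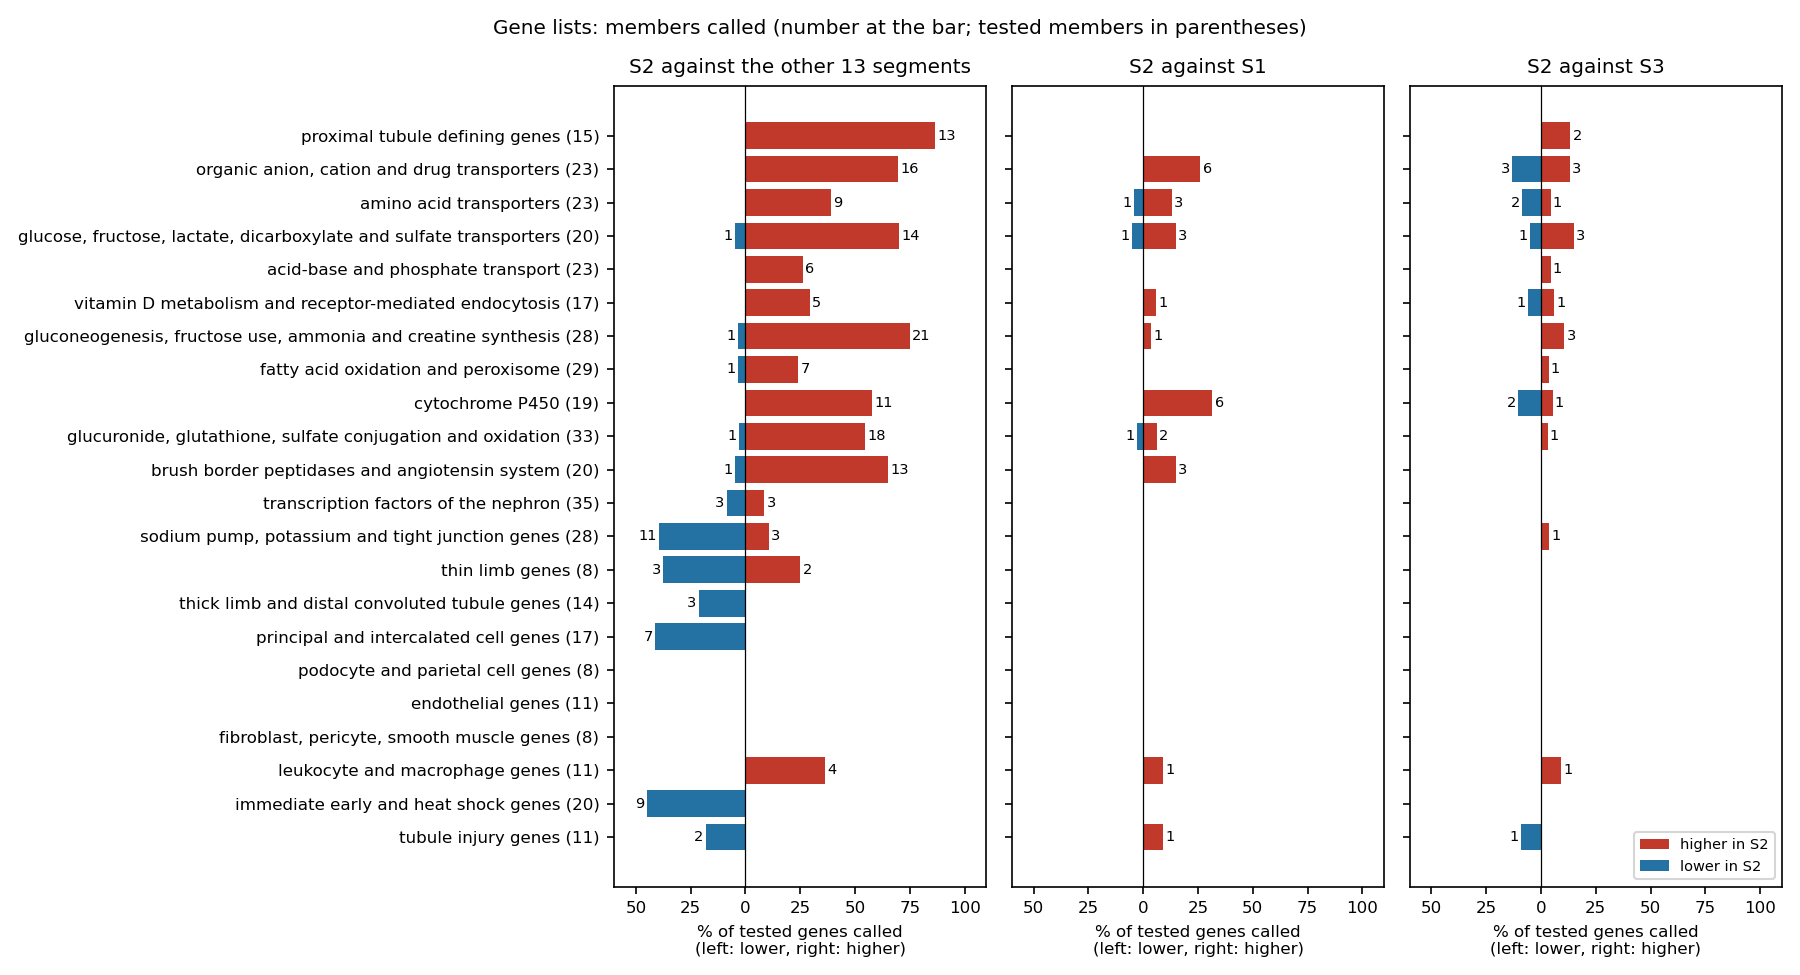
Share of the tested members of each gene list with at least 5 of them that was called higher in S2 (red, to the right) or lower (blue, to the left), against the pool, S1 and S3, with the number of genes at each bar. Against the pool 21 of 28 genes of glucose, ammonia and creatine synthesis were higher and 11 of 28 pump, potassium and tight junction genes lower, while no list had more than 6 members called one way against S1 or S3.

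Against S1, its neighbour upstream, 66 genes were called (0.596%), 51 higher in S2 (0.46%) and 15 lower (0.135%), around an all-gene median of 0.06. The 2 groups of libraries were without overlap for 1 tested gene (0.00903%), which was not called. For 30 of the 51, the highest S1 value was in S1 replicate 5, the library close to S2 replicate 3. Without S1 replicate 5 the count was 97, and without S1 replicates 5 and 6 and S2 replicate 6 together it was 111, of which 61 were among the 66. Of the 51 genes, 37 had no call against S3, 10 were higher and 4 lower than S3.

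Tff3, a secreted trefoil peptide, had 178, 750.0, 41.5, 5832, 1202, 31.1 and 265 RPKM in S2, against 0 to 41.5 RPKM (median 4.11) in S1 and 752 to 10519.7 RPKM (median 2659) in S3. Only S2 replicate 6 lay within the range of S1, and the difference from S1 was 5.82 ± 1.09 (SE; adjusted p = 0.00039). Akr1c12l1, an aldo-keto reductase, had 50.5, 154, 104, 423, 483, 0.219 and 51.4 RPKM in S2, against 0 to 45.9 RPKM (median 0.188) in S1, a difference of 5.15 ± 0.80 (SE; adjusted p = 9.35e-06). In S2 6 libraries exceeded all of S1, and replicate 6 was at 0.219 RPKM.

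Gclc, the catalytic subunit that limits glutathione synthesis, had 774, 173, 494, 263, 829, 1.12 and 408 RPKM in S2, against 0.0193 to 349.8 RPKM (median 1.34) in S1, and differed by 4.96 ± 1.15 (SE; adjusted p = 0.0103). Slc38a3, the basolateral glutamine transporter that feeds ammonia production, had 44.0, 33.7, 20.2, 138, 199, 0.907 and 199.7 RPKM, against 0.0149 to 11.1 RPKM (median 0.293) in S1, and differed by 4.73 ± 0.87 (SE; adjusted p = 0.00039). In both genes replicate 6 lay within the range of S1, as did replicates 2 and 4 for Gclc. The S1 maximum of Gclc was that of S1 replicate 5, and the other 6 S1 libraries had at most 33.3 RPKM. Ppic, a cyclophilin, and Slco1a6, an organic anion transporting polypeptide, were higher by 4.39 ± 1.04 (SE; adjusted p = 0.0139) and 4.32 ± 0.81 (SE; adjusted p = 0.00039), with 1.33 and 0.508 RPKM in S2 replicate 6. The call of Ppic ended without S2 replicate 1, 3, 5 or 7 (adjusted p up to 0.113).

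Organic ion transporters were higher than S1 for 6 of 23 and lower for none. Oct2 differed by 3.52 ± 0.75 (SE; adjusted p = 0.00295), with 0.0575 to 48.8 RPKM (median 31.1) in S1, and Urat1 by 3.22 ± 0.61 (SE; adjusted p = 0.000455), with 0 to 28.6 RPKM (median 1.56) in S1. Cytochrome P450 genes were higher for 6 of 19, among them the fatty acid hydroxylase Cyp4a2, with 322, 179, 26.5, 366, 149, 98.6 and 849 RPKM in S2 and 0.351 to 119 RPKM (median 9.70) in S1, by 3.93 ± 0.73 (SE; adjusted p = 0.00039). Without S2 replicate 6, 3 P450 genes were called. Brush border peptidases were higher for 3 of 20, with Anpep, aminopeptidase N, by 3.78 ± 0.94 (SE; adjusted p = 0.0224) and Mep1b, a meprin subunit, by 3.55 ± 0.72 (SE; adjusted p = 0.00146); the call of Anpep ended without S2 replicate 1, 5 or 7 (adjusted p up to 0.109).

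Amino acid transporters were higher than S1 for 3 of 23 and lower for 1, and sugar and carboxylate transporters higher for 3 of 20 and lower for 1. Slc6a18, a brush border transporter of neutral amino acids, was higher by 4.20 ± 1.08 (SE; adjusted p = 0.0328), a call that ended without S2 replicate 4, 5, 6 or 7 (adjusted p up to 0.133). Slc5a10, a sodium-coupled mannose and fructose transporter, was higher by 3.16 ± 0.69 (SE; adjusted p = 0.00463). Ugt2b15, a glucuronosyltransferase, differed by 3.05 ± 0.54 (SE; adjusted p = 0.00019), with 96.9, 20.3, 26.2, 0.388, 26.5, 0.751 and 78.6 RPKM in S2 and an S1 median of 0.0223 RPKM.

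Among the 15 genes lower than S1, Slc7a7, the basolateral carrier of cationic amino acids that is mutated in lysinuric protein intolerance, had 36.3, 0.813, 71.3, 0, 0, 66.3 and 21.3 RPKM in S2, against 65.3 to 425 RPKM (median 156) in S1, a difference of -4.20 ± 1.00 (SE; adjusted p = 0.0153). S2 replicates 2, 4 and 5 were under 1 RPKM, and only replicates 3 and 6 lay within the range of S1. The call ended without S2 replicate 2, 4 or 5 (adjusted p up to 0.105). Tsx, Metrn, Neurl2 and Akr1c1 were lower, with differences of -2.96, -2.39, -2.37 and -2.28. Slc5a12, a sodium-coupled lactate transporter, had 0.0924, 0, 248, 0, 0, 2.89 and 0 RPKM in S2, with 248 RPKM in replicate 3 alone above the S1 range, against 0.127 to 33.9 RPKM (median 16.2) in S1, and its difference was -2.15 ± 0.45 (SE; adjusted p = 0.00268). The second table lists it at 13.3 RPKM in S2 replicate 3.

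Against S3, its neighbour downstream, 98 genes were called (0.885%), 73 higher in S2 (0.659%) and 25 lower (0.226%), around an all-gene median of 0.11. With quantile normalization 112 were called, of which 64.3% were higher, against 74.5% here. Libraries did not overlap for 8 tested genes (0.0722%), of which 6 were called (0.0542%), all higher in S2, among them Slc4a4, Marc1, Fkbp1a and Nabp1. For 24 of the 73, the highest S3 value was in S3 replicate 3, the library that correlated with S2 replicate 7. Without S3 replicate 3 the count was 103, of which 93 were among the 98, and without S3 replicate 3 and S2 replicate 7 together it was 69, of which 67 were. Of the 73 genes, 72 were also higher than the pool, and 62 had no call against S1.

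Slc4a4, the basolateral bicarbonate exit carrier NBCe1, had 57.9, 1.49, 60, 6.52, 24.7, 2.64 and 8.11 RPKM in S2, against 0 to 0.0257 RPKM (median 0) in S3, a difference of 3.68 ± 0.53 (SE; adjusted p = 2.42e-07). Its S2 mean (RPKM + 1) was 6.05-fold apart between the tables. The second table lists Slc4a4 at 0 in S2 replicates 2 and 5, and its difference from S3 was 1.22 to 6.73 over the alternatives. Marc1, a molybdenum enzyme of mitochondria, differed by 2.63 ± 0.32 (SE; adjusted p = 2.57e-09), the single-strand DNA-binding gene Nabp1 by 3.82 ± 0.85 (SE; adjusted p = 0.00378), and Fkbp1a, the binding protein of FK506, by 3.76 ± 0.95 (SE; adjusted p = 0.0191), a call that ended without S2 replicate 4 (adjusted p 0.0511).

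The largest differences were in Spp2 and Aldh1a1. Spp2, a secreted phosphoprotein, had 70.7, 127, 379, 157, 54.9, 1149 and 598 RPKM in S2, against 0 to 976 RPKM (median 0.287) in S3, a difference of 5.63 ± 0.81 (SE; adjusted p = 2.43e-07). Aldh1a1, which makes retinoic acid from retinal, had 387, 306, 209, 149, 435, 601 and 1227 RPKM in S2, against 0.0531 to 546 RPKM (median 2.51) in S3, a difference of 5.37 ± 1.08 (SE; adjusted p = 0.000734). For both, S3 replicate 5 alone lay within the range of S2. The apoptosis regulator Tnfaip8 was higher by 4.67 ± 1.13 (SE; adjusted p = 0.0113), the RNase P subunit Rpp25 by 4.49 ± 0.78 (SE; adjusted p = 4.28e-05) and the trypsin inhibitor Spink1 by 4.46 ± 0.59 (SE; adjusted p = 1.96e-08). In glucose and creatine synthesis, Gatm had 2058, 488, 5418, 339.8, 899, 137 and 3364 RPKM in S2, against 0 to 397 RPKM (median 67.7) in S3, a difference of 4.05 ± 0.85 (SE; adjusted p = 0.00129). G6pc, which releases free glucose, had 149.8, 1.05, 118, 0, 41.8, 41.4 and 742 RPKM and differed by 3.43 ± 0.80 (SE; adjusted p = 0.00721), a call that ended without S2 replicate 7 (adjusted p 0.108).

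Slc13a1, the sulfate transporter of the brush border, was higher than S3 by 3.22 ± 0.66 (SE; adjusted p = 0.00094), and Slc6a19, the main transporter of neutral amino acids, by 2.15 ± 0.54 (SE; adjusted p = 0.0177), with a call that ended without S2 replicate 3, 5, 6 or 7 (adjusted p up to 0.114). Kcnj15, a potassium channel, was higher by 3.80 ± 0.50 (SE; adjusted p = 1.96e-08), with S2 means (RPKM + 1) that were 37.3-fold apart between the tables. None of the 3 was called against S1.

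Among the 25 genes lower than S3, Gc, the vitamin D-binding protein, had 0 RPKM in S2 replicates 1 to 5, under 1 RPKM in replicate 6 and 2.04 RPKM in replicate 7, against 0 to 376 RPKM (median 33.0) in S3, a difference of -4.03 ± 0.57 (SE; adjusted p = 2.37e-07). Cyp2d1, a P450, had 1.13, 0, 0, 1.78, 21.7, 3.80 and 22.6 RPKM in S2, against 10.6 to 113 RPKM (median 29.5) in S3, a difference of -3.09 ± 0.48 (SE; adjusted p = 1.87e-06). Only replicate 7 exceeded 1 RPKM for Gc, and Cyp2d1 was at 0 in replicates 2 and 3. Cacng5, Tgfbi, Ust5r and Slc7a12 were lower, with differences of -2.93, -2.81, -2.54 and -2.44. Slc22a13, the urate and nicotinate exchanger Oat10, and Slc22a7, the transporter Oat2, were lower, with differences of -2.06 ± 0.37 (SE; adjusted p = 7.64e-05) and -1.47 ± 0.32 (SE; adjusted p = 0.00288), each with 1 S2 library above 1 RPKM. Slc2a5, the fructose transporter Glut5, was lower, with a difference of -1.47 ± 0.37 (SE; adjusted p = 0.0191), a call that ended without S2 replicate 2, 6 or 7 (adjusted p up to 0.15), and that of Eea1 (difference -2.59) ended without any one of the 7 S2 libraries (adjusted p up to 0.0795).

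In all, 5 genes were called in opposite directions against the neighbours. Cryab, a small heat shock protein, had 23.1, 207, 44.2, 579.9, 419, 6.01 and 16.5 RPKM in S2, against 0 to 24.6 RPKM (median 0.0742) in S1 and 150.2 to 6816 RPKM (median 1686) in S3, with differences of 4.55 ± 0.90 (SE; adjusted p = 0.00115) and -4.46 ± 0.90 (SE; adjusted p = 0.000808). Slc7a13, an aspartate and glutamate transporter known from the straight proximal tubule, had 137, 112, 784, 36.7, 322, 0.0586 and 163 RPKM in S2, against 0 to 207 RPKM (median 0.273) in S1 and 475 to 3519 RPKM (median 780.1) in S3, with differences of 4.58 ± 1.01 (SE; adjusted p = 0.00521) and -3.78 ± 1.01 (SE; adjusted p = 0.0378). The call against S3 ended without S2 replicate 4 or 6 (adjusted p up to 0.387). Slc22a24 and Cyp2d5 were also between S1 and S3, at means of 4.78 ± 9.64 and 3.26 ± 5.04 RPKM in S2 (SD, n = 7), and Epb41l3 ran the other way, with means of 10.3 ± 11.9 RPKM in S2, 83.1 ± 96.4 in S1 and 0.0592 ± 0.0729 in S3. The calls of Cyp2d5 and Epb41l3 against S3 ended without S2 replicate 1, 2, 3, 4 or 6 or S3 replicate 3 (adjusted p up to 0.288) and without S2 replicate 1, 3 or 6 (adjusted p up to 0.14). Against S1, that of Slc22a24 ended without S2 replicate 5 (adjusted p 0.0944) and that of Cyp2d5 without S2 replicate 5 or 7 (adjusted p up to 0.353).

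**Figure D3:**
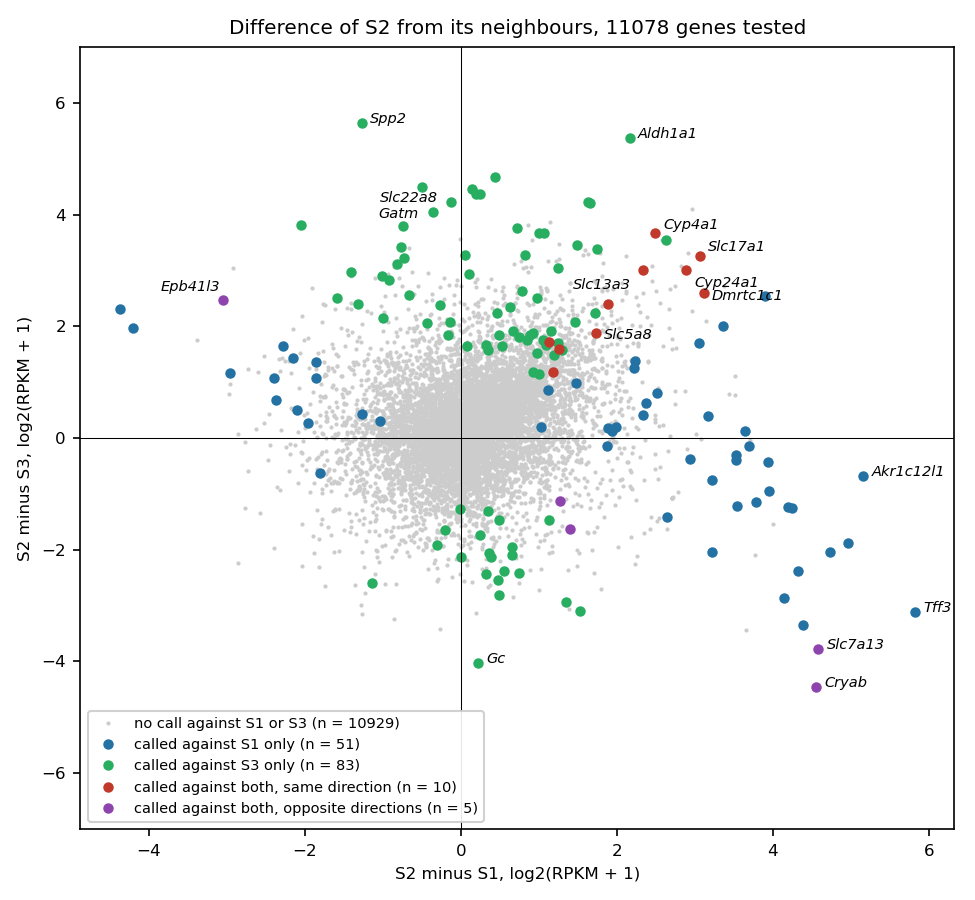
Difference of S2 from S1 (horizontal) and from S3 (vertical) in log2(RPKM + 1) for 11078 genes, coloured by call. The 10 genes called against both in the same direction (red) are all higher in S2, and the 5 called in opposite directions (purple) include Cryab and Slc7a13 at the lower right and Epb41l3 at the upper left; both axes share the S2 libraries.

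Against both S1 and S3, 10 genes were called in the same direction (0.0903%), all higher in S2. Beside Slc17a1 and Cyp24a1 they are Slc13a3, Cyp4a1, Dmrtc1c1, Slc5a8, Pcbp3, Scn3a, Acot12 and Krt76. Slc13a3 had 0.773 to 167 RPKM (median 42.2) in S1 and 0.00580 to 82.3 RPKM (median 16.9) in S3, with differences of 2.34 ± 0.62 (SE; adjusted p = 0.0429) and 3.01 ± 0.62 (SE; adjusted p = 0.000967); the call against S1 ended without S2 replicate 1, 2 or 7 (adjusted p up to 0.17). Cyp4a1, an omega-hydroxylase of fatty acids, had 65.4, 29.7, 12.7, 39.0, 30.3, 235 and 222 RPKM in S2, with differences of 2.49 ± 0.62 (SE; adjusted p = 0.0245) from S1 and 3.67 ± 0.62 (SE; adjusted p = 2.44e-05) from S3; the call against S1 ended without S2 replicate 1, 6 or 7 (adjusted p up to 0.149).

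Among the 10, 4 were low and unevenly detected. Pcbp3, an RNA-binding protein, had 0.146, 6.43, 0.0591, 46.5, 11.2, 16.0 and 2.84 RPKM in S2, and its call against S1 ended without S2 replicate 4 (adjusted p 0.117). Scn3a, a voltage-gated sodium channel, had 0.0607, 10.7, 1.40, 42.9, 0, 0.380 and 0.329 RPKM, and its call against S1 ended without S2 replicate 2 or 4 or S1 replicate 6 (adjusted p up to 0.758), while that against S3 ended without S2 replicate 4, where the difference was under 1. Acot12, a cytosolic acetyl-CoA thioesterase, had 3.63, 0.151, 0.0369, 6.65, 3.54, 1.84 and 7.23 RPKM, and its call against S1 ended without S2 replicate 1, 4, 5 or 7 or S1 replicate 6 (adjusted p up to 0.179). The second table lists Acot12 at 0 in S2 replicates 1 to 5, at 3.03 RPKM in replicate 6 and at 5.46 RPKM in replicate 7. The keratin Krt76 had 7.96, 0, 0, 0, 7.04, 0.303 and 2.33 RPKM, was listed at 0 in all S1 and S3 libraries and had a higher mean in mTAL than in S2 (3.44 ± 9.11 RPKM, SD, n = 7). Its call against S1 ended without S2 replicate 1, 5 or 7 or S1 replicate 5 or 6 (adjusted p up to 0.519), and that against S3 without S2 replicate 1, 5 or 7 or S3 replicate 3 (adjusted p up to 0.379). In the second table Krt76 had 0.144 RPKM in S2 replicate 5 and at most 2.00 RPKM in S2.

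Selective for S2 were 4 genes (0.0361%), exceeding each of the 13 other segment means by at least 1 on the log2 scale. For these, p is the largest of the 13, adjusted over genes, and it rests on the scatter of all 14 segments. It does not measure the scatter of S2 and its nearest segment alone. Cyp24a1 exceeded its nearest segment by 2.89 (adjusted p = 2.7e-09) and Slc17a1 by 3.06 (adjusted p = 0.0217). Dmrtc1c1, of the DMRT-like family, had 27.9, 1.49, 116, 14.7, 26.96, 17.1 and 35.1 RPKM in S2, against 0 to 91.6 RPKM (median 0) in S1 and 0 to 10.6 RPKM (median 7.65) in S3, and exceeded its nearest segment by 2.59 (adjusted p = 0.00212). Its S1 maximum was again in S1 replicate 5. Slc5a8, the sodium-coupled lactate transporter Smct1, had 37.0, 0.359, 8.52, 0, 16.1, 0.268 and 6.34 RPKM in S2, against 0 to 13.5 RPKM (median 0) in S1 and 0 to 0.874 RPKM (median 0.431) in S3, and exceeded its nearest segment by 1.73 (adjusted p = 0.00998).

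The 4 genes differ in how far they rest on single libraries. Slc5a8 was at or below 0.359 RPKM in S2 replicates 2, 4 and 6; it was no longer selective without S2 replicate 1 or 5 (adjusted p up to 0.26), and the second table lists it at 0 in 5 of 7 S2 libraries and at most 8.22 RPKM. Slc17a1 was no longer selective without S2 replicate 2 or 4 (adjusted p up to 0.104), with a pseudocount of 0.1 (adjusted p = 0.391), with quantile normalization (adjusted p = 0.46) or without libraries under 2500 genes (adjusted p = 0.696). Cyp24a1 and Dmrtc1c1 stayed selective in each fit that left out 1 library. With S2 and S1, or S2 and S3, fitted without the other segments, the calls of all 4 genes against that neighbour ended. Without S2 replicate 3 or without S2 replicate 6, 7 genes were selective, and without S1 replicate 5, 6. All 4 genes were among those without S2 replicate 6 and without S1 replicate 5, and the same 4 were selective without S3 replicate 3.

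Levels in S2 also depended on the deposited table. S2 means (RPKM + 1) were over 1.5-fold apart between the tables for 22 of 103 genes examined, among them Slc5a12 (10.7-fold), Cacng5 (6.84-fold), Spink1 (5.04-fold), Galnt11 (2.72-fold), Gpx3 (2.68-fold), Slc22a6 (2.54-fold), Slc22a12 (2.49-fold), Cyp4a2 (2.22-fold), Slc13a1 (2.12-fold) and Miox (2.06-fold). In the second table, the calls of Slc13a3, Slc5a10 and Cyp4a8 against S1 ended (adjusted p = 0.0598, 0.0598 and 0.0595), as did those of Slc22a24, Cyp2d5 and Slc6a19 against S3 (adjusted p = 0.239, 0.591 and 0.13). Cyp24a1, Slc5a8, Acot12, Krt76, Kcnj15 and Cacng5 did not pass its filter on low values.

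**Figure D4:**
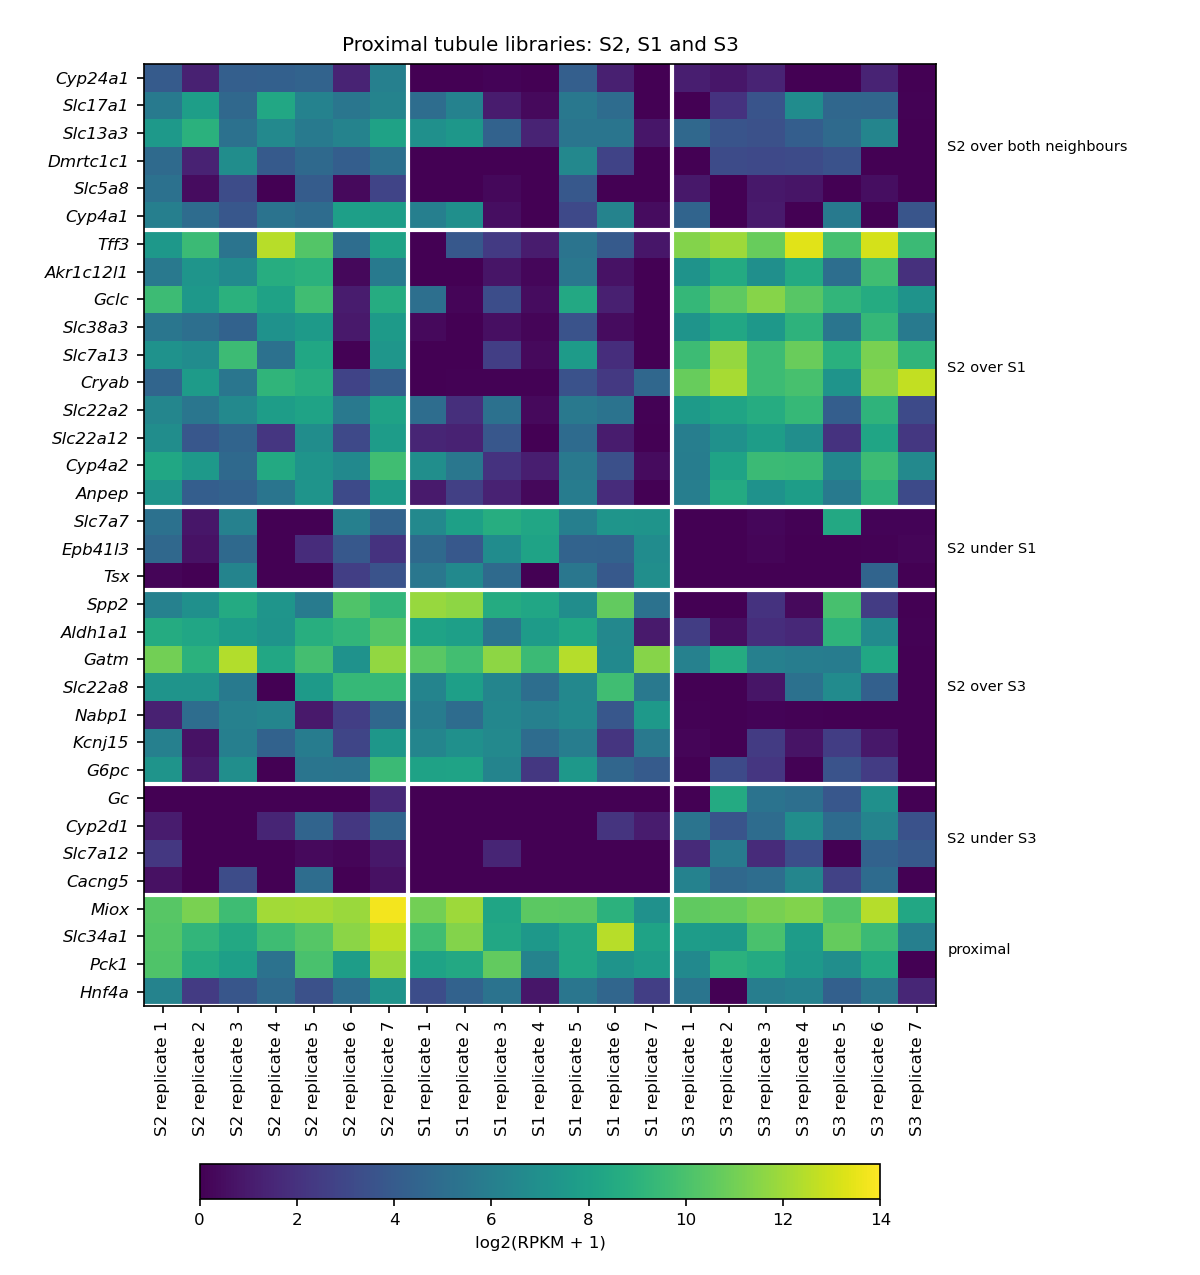
Levels of 34 genes of the text in the 7 S2, 7 S1 and 7 S3 libraries, as log2(RPKM + 1) on a colour scale, grouped by their call, with 4 proximal tubule genes in the last rows. S2 replicate 6 is the lowest S2 library for Akr1c12l1, Gclc, Slc38a3 and Slc7a13, S1 replicate 5 is the highest S1 library for them, and Gc, Slc7a12 and Cacng5 are under 1 RPKM in at least 5 of the 7 S2 libraries.

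The S2 libraries varied among themselves. Of 17144 genes, 1080 reached 1 RPKM in all 7 S2 libraries (6.3%), 8220 in none (47.9%) and 1645 in 1 only (9.6%). Replicate 7, with the most genes, had the highest values of Miox, Slc34a1, Pck1 and Cyp24a1, and its nearest library of another segment was S3 replicate 3 (0.868). The 10 most abundant genes took 20.5% to 38.4% of a library's summed RPKM, with the highest share in replicate 6, where Gpx3 alone reached 57784 RPKM. By median over the 7 libraries, the highest genes that the second table lists at a similar median were Kap (9309 RPKM), Fth1, the ferritin heavy chain (9290.0 RPKM), and Hrsp12, a hydrolase of reactive imines (4996 RPKM).

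Genes of other cells were measured in the same libraries. The podocyte list summed to 0 to 72.8 RPKM in S2 (median 1.29), the endothelial list to 0 to 103 (median 41.0) and the list of fibroblast, pericyte and smooth muscle genes to 0 to 37.0 (median 3.16). Of their 8, 11 and 8 tested genes none was called against the pool, where 6.9% of all tested genes were. At that share lists this short can hold no call, so the counts do not show that RNA of these cells is absent. Under 1 RPKM in every S2 library were 6 of 11 podocyte genes, 4 of 12 endothelial genes and 7 of 12 of the third list. Of these, Synpo, Col1a2, Acta2 and Lum were under 0.01 RPKM in every S2 library. The red cell list summed to 174 RPKM in replicate 4 and to at most 3.46 RPKM in the other 6, with none of its 4 tested genes called, which holds the same limit. Leukocyte and macrophage genes were present: 4 of 11 were higher in S2 than in the pool (median 1.19), and they summed to 325 to 2613 RPKM in S2 (median 1340), 59.1 to 2137 in S1 (median 749.6) and 32.1 to 1145 in S3 (median 207). Segments outside the proximal tubule overlapped with S2 as well, with 351 to 1137 RPKM (median 990) in cTAL, 431 to 1240 (median 954) in mTAL and 81.1 to 1625 (median 768) in DCT.

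C1qb, a complement subunit of macrophages, had 0.719, 217, 0, 304, 36.7, 21.6 and 10.4 RPKM in S2, against 0 to 0.259 RPKM (median 0) in S3, with differences of 3.04 ± 0.68 (SE; adjusted p = 0.000516) from the pool and 4.23 ± 0.92 (SE; adjusted p = 0.00273) from S3. Tyrobp, an adaptor of myeloid receptors, had 33.1, 559, 14.5, 72.4, 25.2, 17.2 and 9.12 RPKM and differed by 3.51 ± 0.74 (SE; adjusted p = 0.000217) from the pool. In S3 Tyrobp reached 146 RPKM in replicate 6 and 296 RPKM in replicate 7, with at most 4.90 RPKM in the other S3 libraries. S2 replicates 2 and 4, which held the fewest genes, were the highest S2 libraries for both C1qb and Tyrobp. Cd74, the invariant chain, had 299, 606, 171, 1582, 1179, 1664 and 684 RPKM and differed by 3.97 ± 0.91 (SE; adjusted p = 0.00085), and C1qa differed by 2.28 ± 0.68 (SE; adjusted p = 0.0193), a call that ended without S2 replicate 4, 5 or 6 (adjusted p up to 0.162). Without S2 replicates 2 and 4, 2 of the 11 genes were called. Not all leukocyte genes were highest in S2. C1qc, a further complement subunit, had means of 12.8 RPKM in S2, 16.1 in S1, 15.7 in S3 and 29.3 in cTAL. Laptm5 had means of 2.22 RPKM in S2, 33.8 in S1, 0.701 in S3 and 14.9 in cTAL. Ptprc, carried by all leukocytes, had a median of 0 and Cd3e, of T cells, was at 0 in all 7. The part of leukocyte RNA in the other differences was not tested.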

How the data were processed

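RNA of microdissected rat tubule segments was measured by paired-end sequencing of 50 nt reads. The authors deposited RPKM per RefSeq transcript in a table that used polyadenylation-site data, which was the one analysed, and in a second made without them. Per the submitters' processing notes, the tools were HOMER, SAMtools, STAR 2.3.0-r192 and Trimmomatic 0.32, with the rn5 build; order and settings are not given in sources used here. RPKM holds no counts, so depth is known only relative to another library, from the steps of low values.

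Of 17974 transcript entries, the one with the highest mean was kept for each of 17144 symbols (503 had more than 1). Genes that reached 1 RPKM in 4 or more libraries entered, on the log2(RPKM + 1) scale, limma 3.58.1 (R 4.3.3) with 14 segment means and a trended variance, two-sided, with Benjamini-Hochberg adjustment over all genes tested. The pool is the unweighted mean of the other 13 segment means. The steps were tested on simulated data in which each gene had the same spread in all segments, so unequal spread was not examined. Glomerulus libraries were not used.

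Named genes are the 12 (pool) or 8 (S1, S3) called genes with the largest difference in each direction, genes selective for S2 or called against both neighbours, the 15 highest S2 medians, and members of 24 lists (475 of 492 memberships are in the table); the text gives a part of them. Cyp24a1, Slc17a1 and Slc22a8 were given as markers. Galnt11 was named after its values were seen. Members and lists were chosen with earlier results of these data known. The alternatives were another pseudocount, no filter, quantile normalization, the second table, a replicate block, detected genes as a covariate, all transcript entries, other pools, each segment pair alone, and libraries left out. RefSeq start windows matched 85 of 103 genes examined, and the motif was chosen after other results were seen. Some genes that the rule names, and a motif searched first, are not reported here.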

Additional observations from a re-analysis of the deposited data

Results flagged for a closer look

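In 15 of 103 genes examined, 1 of the 7 S2 libraries stood apart on the log2(RPKM + 1) scale: its gap to the next library, as a share of the range of all 7, reached Dixon's 95% critical value of 0.568. Chance marks about 1 in 20 genes with normally distributed values, but this share does not hold for genes at or near 0 in most S2 libraries, where a single library above 0 can stand apart, as for Gc, Eea1, S100a6, Slc22a7, Slc22a13, Slc7a12 and Slc5a12, so no excess is read from the count. Replicate 4 was the low library for Slc22a8 (0.611) and Slc22a6 (0.645), the basolateral organic anion transporters. Replicate 6 was the low library for Akr1c12l1 (0.625) and Gclc (0.738), and the high one for Gpx3 (0.568) and Hpd (0.625). Replicate 3 was the high library for Tmem27 (0.616) and Slc5a12 (0.754), which the second table lists at 13.3 RPKM there against 248 RPKM here. Replicate 7, with the most genes detected, was the high library for S100a6 (0.834), Gc (0.984), Eea1 (0.748) and Slc22a7 (0.748). Replicate 5 was the high library for Slc22a24 (0.584) and Slc22a13 (0.837), and replicate 1 for Slc7a12 (0.597).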

How the results depend on the processing

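Counts of called genes against the pool were 533 to 1016 over the alternatives, against 764, with the most under quantile normalization and the fewest with the 98 libraries as 1 group. For S2 against S1, 66 calls became 38 with a pseudocount of 0.1, 37 without libraries under 2500 genes, 6 with both segments fitted alone (6545 genes tested) and 111 without S1 replicates 5 and 6 and S2 replicate 6. For S2 against S3, 98 became 10 with both segments fitted alone (6210 genes tested). Selective genes numbered 8 without those 3 libraries, and 4 to 7 when 1 S2 library was left out. Leaving out 1 S2 library gave 627 to 719 calls against the pool, 44 to 90 against S1 and 72 to 133 against S3. Tnip1 against the pool had a difference of -0.4101 in the second table, where the analysed one gives 7.10. The causes were not tested. Of 755 values of 38 named genes against S1, 133 lost the call under an alternative, and 3 genes (Tff3, Akr1c12l1 and Slc38a3) kept it under all; against S3 90 of 771 lost it, and 4 of 41 genes (Cryab, Spp2, Aldh1a1 and Tnfaip8) kept it; against the pool 67 of 75 did. The median of all genes moved by 0.21 (S3), 0.11 (S1) and -0.12 (pool) with the smaller pseudocount, by 0.12 (pool) and -0.12 (S3) under quantile normalization and by -0.14 (S3) with the covariate.

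With the replicate number as a block, 787 genes were called against the pool, 64 against S1 and 94 against S3, and 4 were selective. The numbers share no source in the labels: deviations of same-numbered S2 and S1 or S3 libraries correlated at -0.12 to 0.17 over the pairs other than replicate 6 of S2 and S1 (0.724). Values near 1 RPKM rest on few reads, and absolute depth is unknown.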
